A study of Mus musculus with 4 samples.

Results

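The genes described here encode the proteins of the cytosolic ribosome. They were chosen by name: every feature of the array was taken whose gene symbol was Rpl or Rps with a number and an optional a, x, y, l or p ending, or was Rplp0, Rplp1, Rplp2 or Rpsa, and pseudogene symbols and the Rps6 kinases were left out. The rule found 75 genes among 19954 named genes, 27 of the small subunit and 48 of the large subunit. They held 448 of the 35556 features of the array, and each gene was represented by its brightest feature on average across the 4 arrays. Rpl32 and Rpl32l shared that feature, so 74 features stood for the 75 genes. Membership followed from the gene names alone, but the group was chosen with earlier results of these data known. Expression values decided which feature stood for each gene.

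The arrays came from MC3T3-E1 cells, a pre-osteoblast line made from the calvaria of C57BL/6 mice. The 4 groups were cells with citalopram at day 7, their untreated controls at day 7, cells with citalopram at day 3 and their untreated controls at day 3, with 1 array in each. Citalopram, a selective serotonin reuptake inhibitor, was given at 100 µM in the proliferation medium. All 4 groups shared the same line and a medium with 1% fetal bovine serum. The sources used here do not say if wells were pooled. With 1 array per group, a difference between groups had no replicate check, and a single line limits the groups as a model of bone.

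A ribosome is built of a small subunit, which holds the messenger RNA and reads its codons, and a large subunit, which joins the amino acids, and the proteins are needed in fixed proportion. In mammals most of these messenger RNAs begin with a short run of pyrimidines at the cap, called a TOP motif, and the mTORC1 kinase controls their translation through the repressor Larp1. Growing cells and cells that secrete much protein, such as osteoblasts laying down collagen, are known for high ribosome content, and mutation of single ribosomal protein genes causes Diamond-Blackfan anaemia, in which skeletal defects also occur.

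Start-site sequences were matched for 60 of the 75 genes in the RefSeq table of GRCm38.p6. They are shown from 40 bases before the annotated start through 20 bases from it on, with the longest run of C or T of at least 5 bases in capitals. The first set is shown because its genes carry the pyrimidine run at or beside the annotated start that the TOP motif describes. Rps6, the small subunit protein that S6 kinases phosphorylate, Rps18, Rps27 and Rpl35 belong to it.
Rps6, chr4:86857348-86857407, minus strand: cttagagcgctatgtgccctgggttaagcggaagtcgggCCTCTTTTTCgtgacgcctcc
Rps18, chr17:33955646-33955705, minus strand: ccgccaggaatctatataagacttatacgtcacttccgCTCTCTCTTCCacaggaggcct
Rps27, chr3:90213629-90213688, minus strand: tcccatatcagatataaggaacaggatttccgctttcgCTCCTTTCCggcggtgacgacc
Rpl35, chr2:39005112-39005171, minus strand: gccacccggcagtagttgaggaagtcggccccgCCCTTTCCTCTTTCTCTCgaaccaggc
The next set is shown because single results below turn on its genes. They are Rpl24 and Rps25, which stood apart in 1 citalopram comparison each, and Rps19, which differed by day.
Rpl24, chr16:55966235-55966294, plus strand: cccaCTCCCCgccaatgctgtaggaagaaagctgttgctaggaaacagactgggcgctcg
Rps25, chr9:44407674-44407733, plus strand: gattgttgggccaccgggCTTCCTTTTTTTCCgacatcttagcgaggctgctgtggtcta
Rps19, chr7:24884552-24884611, plus strand: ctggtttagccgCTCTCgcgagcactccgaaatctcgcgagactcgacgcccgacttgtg
The last set places Rpl39, the brightest feature of the group, beside its testis-expressed paralog Rpl39l and beside Rpl3l, the striated muscle paralog of Rpl3, both of which were not above the floor defined below on any of the 4 arrays.
Rpl39, chrX:37085203-37085262, minus strand: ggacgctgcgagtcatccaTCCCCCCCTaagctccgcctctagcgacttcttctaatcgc
Rpl39l, chr16:10170188-10170247, plus strand: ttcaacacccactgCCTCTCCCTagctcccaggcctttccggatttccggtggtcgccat
Rpl3l, chr17:24727786-24727845, plus strand: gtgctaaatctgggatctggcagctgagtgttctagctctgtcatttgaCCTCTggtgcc

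A C at the annotated start followed by 4 further bases of C or T was found in 13 of the 60 start sites (21.7%), against 673 of 27025 start sites in the whole table (2.49%). A run of at least 8 of C or T within 30 bases of the start was found in 31 of 60 (51.7%), against 22.8% of all start sites. The ETS-type core CTTCC, searched on both strands of the 300-base window, matched 55 of 60 (91.7%), against 71.1% of all windows, and TATAAA, also on both strands, matched 6 of 60 (10.0%), against 14.2%. CTTCC can lie inside a pyrimidine run, so these matches overlap in part. The start site of a TOP messenger RNA can differ from the annotated one by a few bases, and a match here is only a description of the letters.

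The ribosomal protein features were among the brightest on every array. Their median was 13.2 on the log2 scale on both day 7 arrays, 13.1 on the day 3 citalopram array and 13.2 on the day 3 control array. A value over 12 was reached by 62 of 75 genes on each day 7 array (82.7%) and by 61 on each day 3 array (81.3%), where 3.14% to 3.45% of all named genes did so. By mean over the 4 arrays, 47 of the 75 genes lay in the brightest 1% of genes and 66 in the brightest 5%. A feature's brightness also depends on its probes, so the order of genes in this range is not an order of RNA amounts. Each gene was read at its brightest feature, a choice that favours high values in genes with many features, and the 75 genes had 448. Members could keep a feature with several symbols, as 27 of the 75 did, whereas other genes were limited to features with 1 symbol. The shares of members and of all genes were therefore not made in fully the same way.

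**Figure D1:**
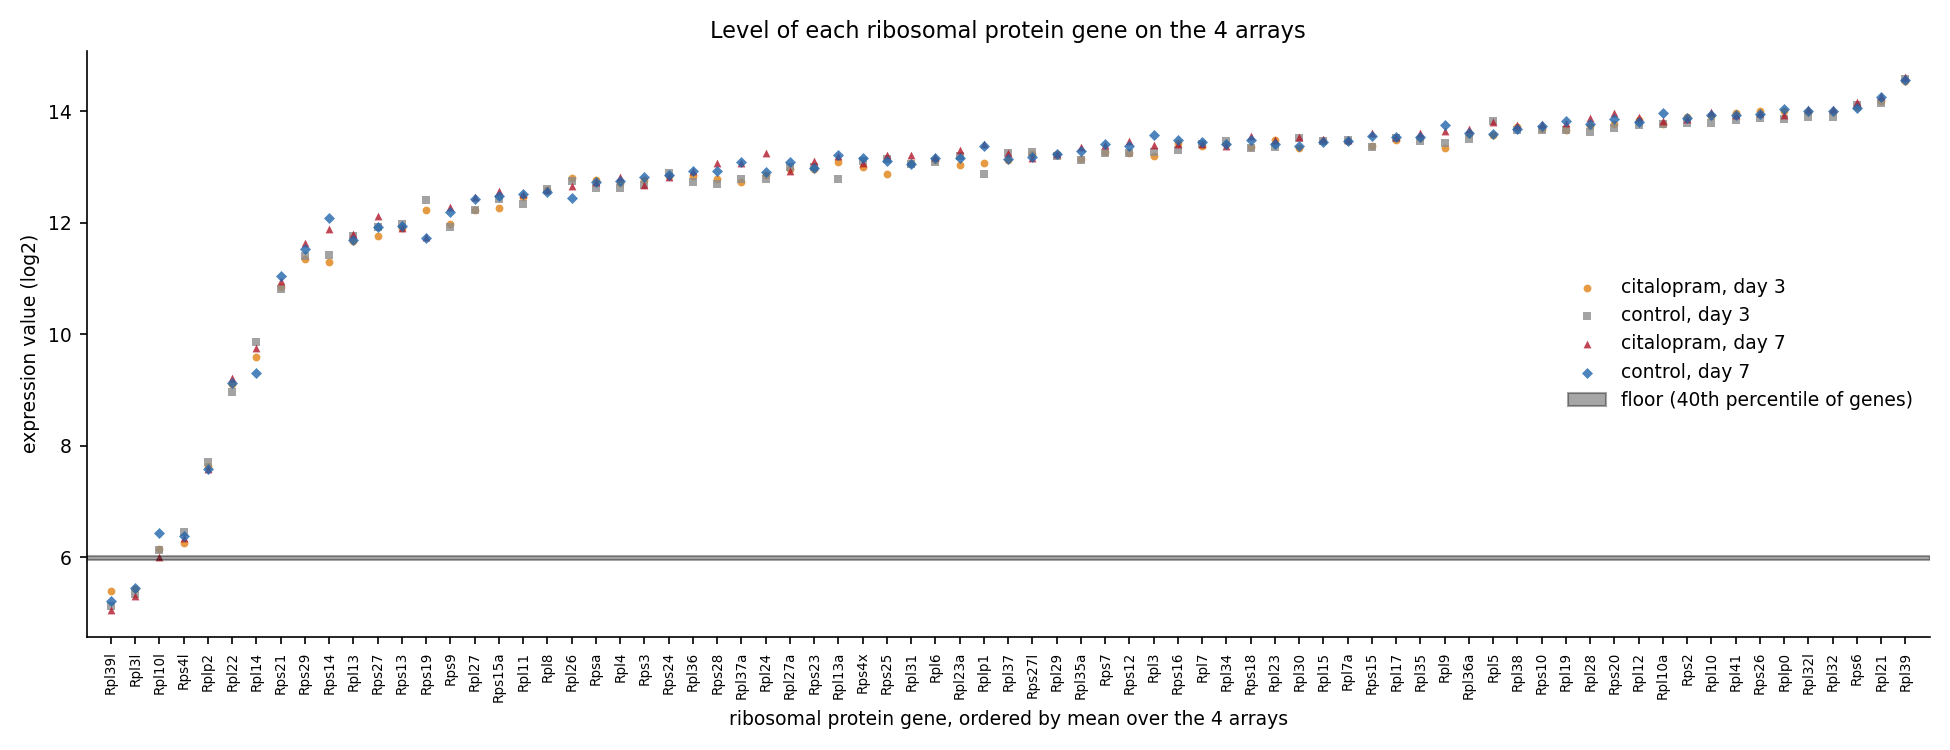
Expression value (log2, vertical axis) of each of the 75 ribosomal protein genes (horizontal axis, ordered by mean) on the 4 arrays, each array with its own colour and marker; the grey band spans the floors of the 4 arrays. Most genes lie between 12 and 14.6 with the 4 markers on top of each other, and Rpl39l and Rpl3l lie below the band.

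Several of the brightest features differed little between arrays. Rpl39, a small protein of the exit tunnel, read 14.60 with citalopram and 14.56 in control at day 7, and 14.55 with citalopram and 14.57 in control at day 3. Rps6 read 14.17 with citalopram and 14.05 in control at day 7, and 14.07 with citalopram and 14.11 in control at day 3. At day 3 this kept feature was lower with citalopram, whereas 7 of the 8 features of Rps6 were higher. In both genes no array lay far from the other 3. Rpl21, a large subunit protein with 41 features, read 14.26 with citalopram and 14.25 in control at day 7, and 14.17 with citalopram and 14.14 in control at day 3. Rpl41, the shortest ribosomal protein, read 13.93 in both groups at day 7, and 13.96 with citalopram and 13.83 in control at day 3. Rplp0, the base of the acidic stalk that recruits elongation factors, read 13.92 with citalopram and 14.04 in control at day 7, and 14.004 with citalopram and 13.86 in control at day 3. The treatments differed by up to 0.14 among these genes, for Rplp0 at day 3.

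Rpsa, a small subunit protein also known as the laminin receptor precursor, read 12.72 with citalopram and 12.73 in control at day 7, and 12.76 with citalopram and 12.62 in control at day 3. Its brightest feature was the higher with citalopram at day 3, whereas 4 of its 5 features were lower. Features of the same gene read the same RNA on the same arrays, so here and below their agreement does not stand in for replicate arrays. The genes whose paralogs were dim were bright themselves. Rpl10, which joins the large subunit late in assembly, read 13.98 with citalopram and 13.93 in control at day 7, and 13.91 with citalopram and 13.79 in control at day 3. Rpl3, near the peptidyl transferase centre, read 13.39 with citalopram and 13.58 in control at day 7, and 13.19 with citalopram and 13.27 in control at day 3, and 7 of 7 features were lower with citalopram at each day. Rps4x, the X-linked small subunit gene, read 13.07 with citalopram and 13.15 in control at day 7, and 12.99 with citalopram and 13.10 in control at day 3; 5 of 5 features were lower with citalopram at each day.

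Paralogs known from other tissues formed the dim end. The floor was set on each array at the 40th percentile of genes, which fell between 5.95 and 6.01. Rpl39l read 5.05 with citalopram and 5.22 in control at day 7, and 5.38 with citalopram and 5.12 in control at day 3. Rpl3l lay between 5.30 and 5.45. Both stayed below the floor on all 4 arrays, whereas Rpl10l, the testis paralog of Rpl10 that replaces it in male germ cells, lay near the floor at 6.00 and 6.44 in citalopram and control at day 7 and at 6.14 and 6.13 at day 3. Rps4l lay between 6.25 and 6.45. Rps27l, a paralog of Rps27 known as a p53 target, was in the bright range at 13.17 to 13.26. Rplp2, another protein of the stalk, had a single feature at 7.58 to 7.70, and low values were therefore not limited to paralogs.

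Citalopram was compared with control at each day to ask whether the drug moved ribosomal protein transcripts. At day 3 the citalopram value was the higher one for 43 of 75 genes, beside 59.4% of all genes, and the median difference was 0.01, beside 0.03 for all genes; the sign of the members' median turned under quantile normalization and under cyclic loess (−0.01 and −0.03). At day 7 it was higher for 48 of 75, beside 45.1% of all genes, and the median was 0.03, beside −0.02; it turned to −0.02 when each array's median was subtracted. Relative to all genes, the members' median was lower by 0.02 at day 3 and higher by 0.05 at day 7. Quantile normalization and cyclic loess kept both signs. Subtracting array medians moves the members and all genes alike, so it cannot change these offsets. These offsets were smaller than the spread among the genes, whose SD was 0.12 at day 7 and 0.11 at day 3, beside 0.19 and 0.17 for all genes. The 594 other genes with a mean of at least 12, not matched to the members on brightness, had citalopram medians of 0.07 at day 3 and −0.04 at day 7. The members' medians thus lay further from those of other bright genes than from those of all genes.

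Few of the genes passed a 1.2-fold difference. A gene was counted where the brighter of its arrays reached the floor, which 73 of the 75 did. At day 7, 2 of 73 were 1.2-fold higher with citalopram, beside 9.84% of all genes, and 1 was lower, beside 9.06%. At day 3, 1 of 73 was higher, beside 8.94%, and 0 were lower, beside 4.96%. Other bright genes also passed 1.2-fold less often than all genes. Of the 594 others with a mean of at least 12, 23 were higher and 35 lower at day 7. At day 3, 32 of these 594 were higher and 16 lower. A 1.5-fold difference was reached by 0 of 73 genes in either direction at day 7, beside 0.558% higher and 0.944% lower, and by 0 of 73 at day 3, beside 0.5% higher and 0.303% lower. Over all 4 comparisons, 56 of 75 genes stayed within 1.2-fold in each, as did 12475 of 19954 genes.

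**Figure D2:**
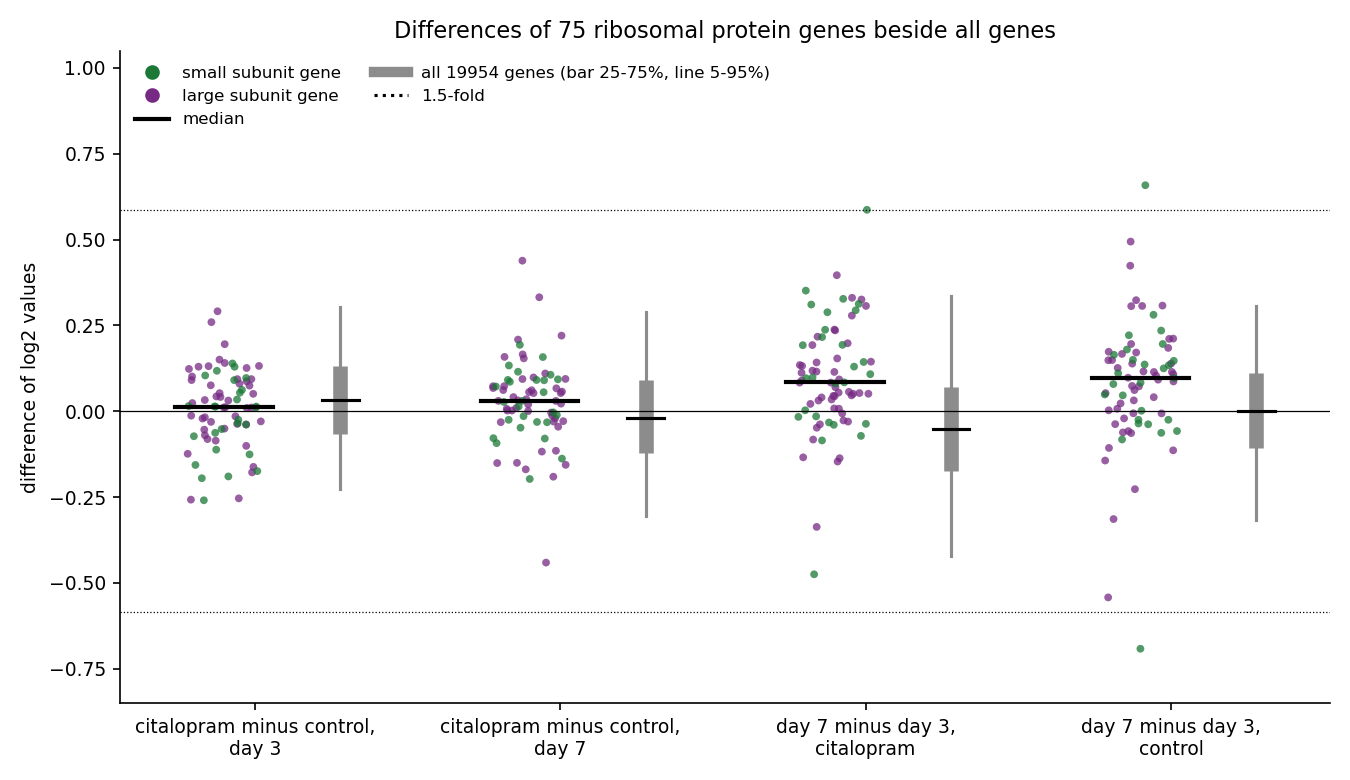
Difference of log2 values (vertical axis) in the 4 comparisons (horizontal axis); points are the 75 genes, green for the small and purple for the large subunit, with the median as a black line, and grey bars and lines show the middle 50% and 90% of all 19954 genes. The points cluster near 0 in the citalopram comparisons and sit mostly above 0 in both day comparisons, where subtracting array medians turns the medians to −0.07 in citalopram and −0.01 in control.

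An additive model with treatment and day was fitted with limma to the 12423 genes above the floor, so that the other factor stood in for replicates. A p-value then weighs the size of the effect against how much it differed between the 2 pairs, with a variance shared in part across genes. It does not measure the spread of replicates. For citalopram, limma called 0 of 73 ribosomal protein genes higher and 0 lower at an adjusted p under 0.05, beside 0.0% of all genes in each direction. At an unadjusted p under 0.05, limma found 0 of the 73 in either direction, and 664 higher and 458 lower among all genes. The smallest adjusted p of the group was 0.679, for Rpl24. The count stayed at 0 under quantile, loess and median scaling. Over all genes these called 52, 21 and 26 higher and 87, 22 and 59 lower. In simulated data, limma called 0 of 50 genes changed by 0.3 on the log2 scale. It called 28 of 50 changed by 0.6 and 19 of 50 changed by −0.6. The largest citalopram estimate among the 73 genes was −0.21, for Rpl10l. A count of 0 therefore cannot show whether changes of this size were present.

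Rpl24, a large subunit protein at the bridge to the small subunit whose mutation gives the mouse Belly spot and tail phenotype, had one of the largest citalopram differences at day 7. It read 13.24 with citalopram and 12.91 in control at day 7, and 12.85 with citalopram and 12.77 in control at day 3. The citalopram array of day 7 stood above the other 3. All 3 features of the gene were higher with citalopram at day 7, by 0.33 to 0.38 on the log2 scale.

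Rps25, a small subunit protein needed for initiation from certain viral entry sites, differed at day 3 instead. It read 12.88 with citalopram and 13.14 in control at day 3, and 13.20 with citalopram and 13.11 in control at day 7. The day 3 citalopram array was the lowest of the 4. All 6 features were lower with citalopram at day 3, by −0.26 to −0.15, whereas at day 7 they lay between −0.01 and 0.09.

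Rpl23a, which docks nascent-chain factors at the exit of the tunnel, carried 13 features that were alike. It read 13.03 with citalopram and 13.19 in control at day 3, and 13.30 with citalopram and 13.15 in control at day 7. The day 3 citalopram array was the lowest and the day 7 citalopram array the highest. All 13 features were lower with citalopram at day 3, by −0.32 to −0.11, and all 13 were higher at day 7, by 0.10 to 0.18. These features are not independent readings and share the same arrays. Rpl30, whose kept feature carries 3 symbols and which was named after its values were seen, had 10 of 11 features lower at day 3 and 11 of 11 higher at day 7.

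The kept feature of Rps27 carries several symbols. Both features of Rps27 were lower with citalopram at day 3, by −0.27 and −0.16, and higher at day 7, by 0.16 and 0.19. Rplp0 had the opposite signs in all 4 of its features, with citalopram differences of −0.12 to −0.05 at day 7 and 0.14 to 0.18 at day 3. Rpl10a, a protein of the L1 stalk, was lower with citalopram in 4 of 4 features at day 7, by −0.16 to −0.13, and within 0.03 of control at day 3. Across the group, 18 genes were lower at day 3 and higher at day 7 with citalopram, 7 of the small and 11 of the large subunit, and 13 had the opposite pair of signs. Together these were 31 of 75 genes, and over all genes 9948 of 19954 had opposite signs at the 2 days. The change of the citalopram difference, day 7 minus day 3, was above 0 for 40 of 75 genes, beside 39.9% of all genes; 7 of 73 passed 1.2-fold on the higher side, beside 11.3%, and 2 on the lower, beside 15.7%, and 1 passed 1.5-fold on the higher side, beside 1.15%, and 0 on the lower, beside 1.83%. This difference was not tested.

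Smaller differences came from genes at the ends of the citalopram ranking. Rps28 read 13.07 with citalopram and 12.92 in control at day 7, and 12.79 with citalopram and 12.70 in control at day 3. With citalopram 7 of 7 features were higher at day 7, whereas at day 3, 4 were higher and 3 lower. Rpl27a read 12.93 with citalopram and 13.08 in control at day 7, and 12.96 with citalopram and 12.99 in control at day 3. All 9 features of Rpl27a were lower with citalopram at each day. Rpl22, which also binds a viral RNA, had 1 feature that read 9.22 with citalopram and 9.13 in control at day 7, and 9.11 with citalopram and 8.96 in control at day 3. Rpl23, which can bind Mdm2, read 13.48 with citalopram and 13.41 in control at day 7, and 13.49 with citalopram and 13.35 in control at day 3. In both genes citalopram was the higher at each day, by at most 0.15.

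Other large differences rested on 1 feature. Rpl14, a large subunit protein, had a single feature that read 9.75 with citalopram and 9.31 in control at day 7, and 9.59 with citalopram and 9.85 in control at day 3. Its differences of 0.44 and −0.26 had opposite signs. Rpl5, which with Rpl11 carries the smallest ribosomal RNA into the large subunit and can bind Mdm2, differed by 0.21 at day 7 and −0.25 at day 3 in its brightest feature. The median over its 5 features was 0.06 at day 7 and −0.01 at day 3. Rpl11 differed by −0.01 at day 7 and 0.13 at day 3.

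**Figure D3:**
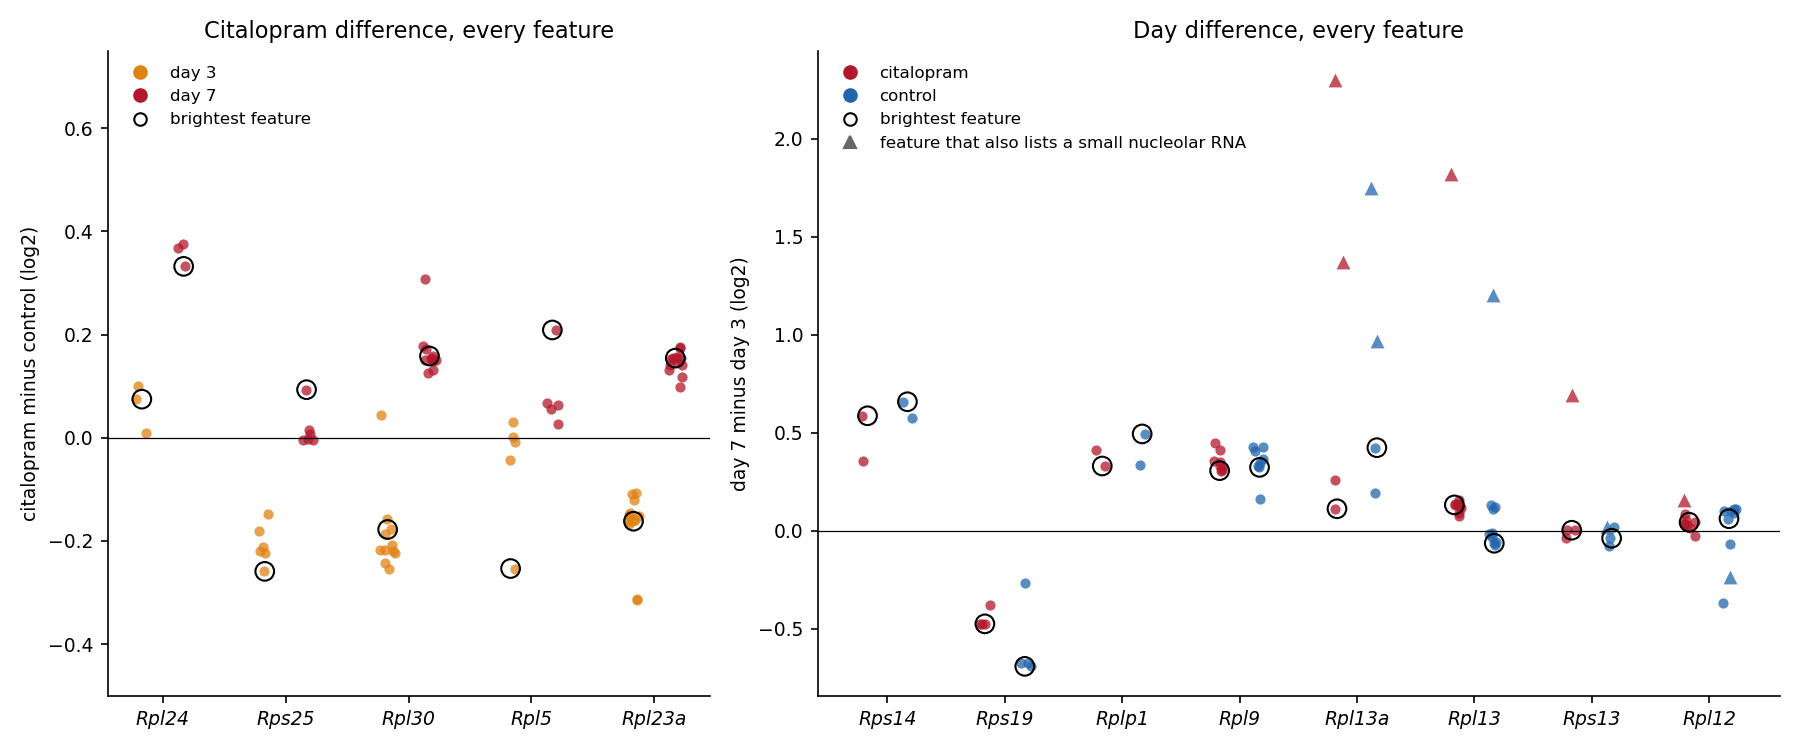
Differences of every feature of selected genes: left, citalopram minus control (log2) at day 3 and day 7; right, day 7 minus day 3 (log2) in citalopram and control; circles mark the brightest feature and triangles the features that also list a small nucleolar RNA. The 13 features of Rpl23a lie below 0 at day 3 and above 0 at day 7, the brightest feature of Rpl5 stands apart from its other 4, and the triangles of Rpl13a and Rpl13 reach 2.30 and 1.82.

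The day comparisons asked what changed between day 3 and day 7 of culture. With citalopram the day 7 value was the higher one for 57 of 75 genes, beside 38.5% of all genes, and the median difference was 0.08, beside −0.05 for all genes. In control it was higher for 54 of 75, beside 50.3%, with a median of 0.10, beside 0.00. Subtracting the median of each array turned both medians, to −0.07 with citalopram and −0.01 in control, since it moved all genes by −0.15 and −0.11 in these comparisons. Relative to all genes, the members' median was higher by 0.14 with citalopram and by 0.10 in control, which subtracting array medians cannot change. Under quantile normalization and cyclic loess this offset was 0.14 and 0.15 with citalopram, and 0.09 and 0.07 in control. The 594 other genes with a mean of at least 12, which were not matched to the members on brightness, had medians of −0.07 with citalopram and 0.04 in control. In bulk RNA, fewer cells of a type and less RNA per cell cannot be told apart.

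At 1.2-fold, 12 of 73 genes were higher at day 7 with citalopram, beside 12% of all genes, and 1 was lower, beside 18.2%. In control 8 of 73 were higher, beside 9.17%, and 3 were lower, beside 11.6%. At 1.5-fold, 1 of 73 was higher with citalopram, beside 1.99%, and 0 were lower, beside 2.8%; in control 1 was higher, beside 1.16%, and 1 was lower, beside 1.14%. The day comparisons of the 2 treatments share no array, and over the 74 distinct features 41 were higher at day 7 in both treatments, 6 were lower in both and 27 differed in sign, with a Pearson correlation of 0.458, beside 0.473 over all genes. For citalopram at the 2 days the same correlation was −0.226, beside 0.118, as a description over genes, which are not independent.

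**Figure D4:**
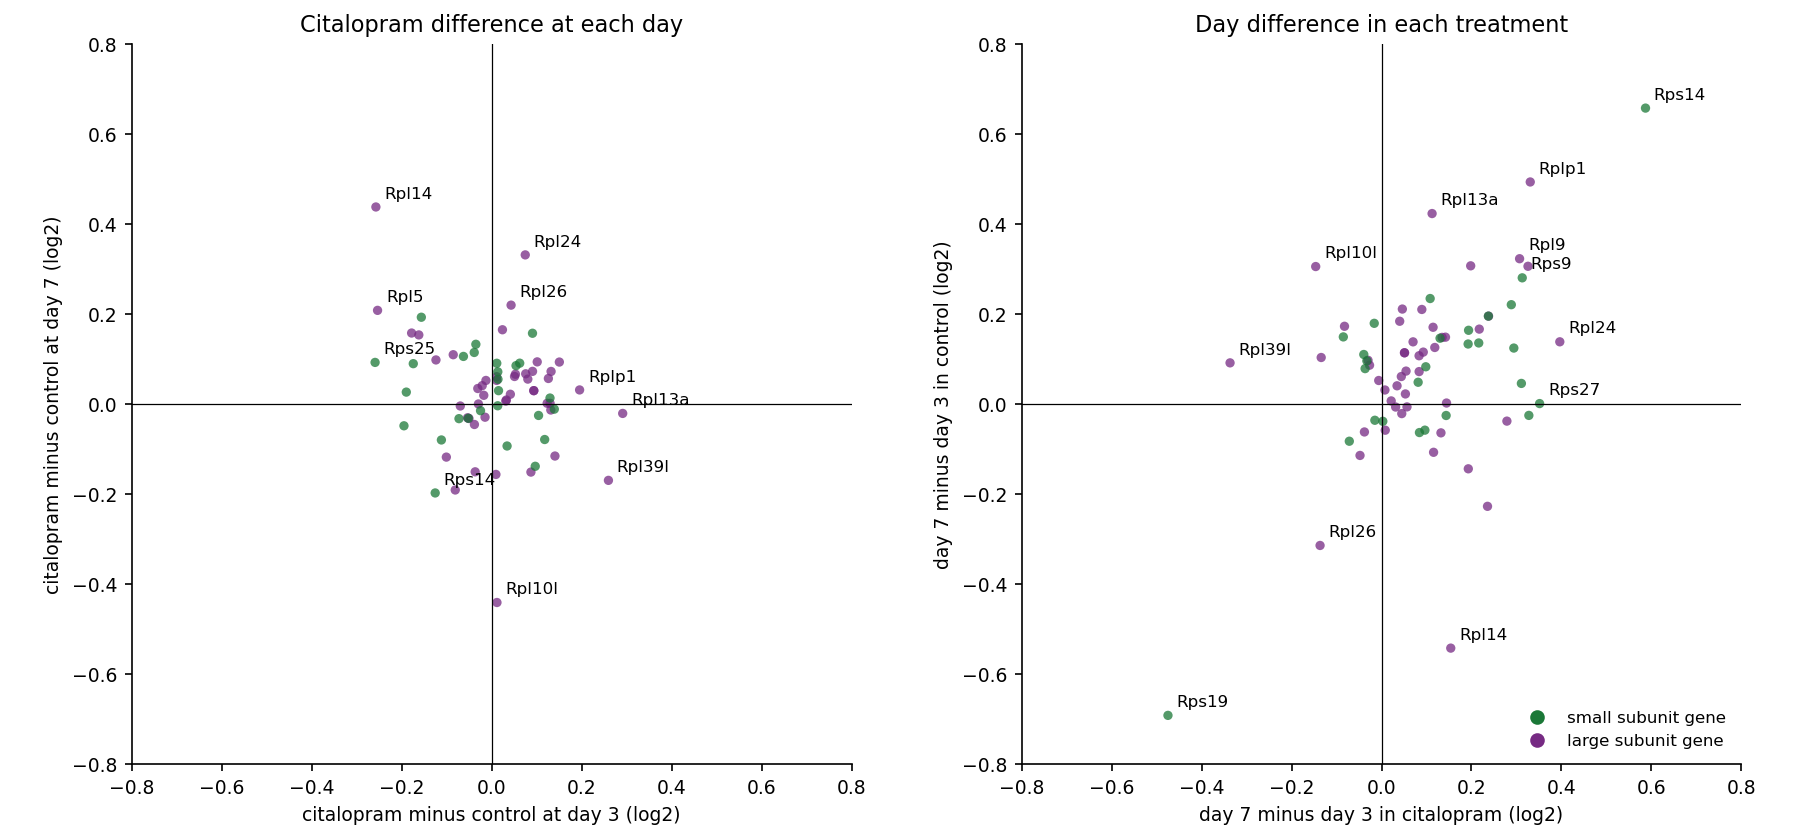
Left, the citalopram difference at day 3 (horizontal) against day 7 (vertical); right, the day difference with citalopram (horizontal) against control (vertical), all as log2 differences, 1 point per gene, green for the small and purple for the large subunit. On the left the points show no common direction (r = −0.226), and on the right Rps14 and Rps19 lie far out on opposite sides.

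For day, limma called 1 of 73 genes higher, beside 1.31% of all genes, and 1 lower, beside 1.49%. At an unadjusted p under 0.05 the model found 9 of 73 higher and 1 lower, beside 1022 higher and 1475 lower of 12423 genes. Rps14, a small subunit protein on the platform whose loss of 1 copy in humans underlies the anaemia of a chromosome deletion syndrome, rose with day. It read 11.88 with citalopram and 12.08 in control at day 7, against 11.29 with citalopram and 11.42 in control at day 3. Both day 7 arrays lay above both day 3 arrays. The difference was 0.62 on the log2 scale (limma adjusted p = 0.0233), and both features of the gene were higher in each treatment, by 0.35 to 0.59 with citalopram and by 0.57 to 0.66 in control. The adjusted p was 0.0505 with the mean over features and 0.0806 with treatment left out of the model, and lay between 0.000452 and 0.0806 over the alternatives.

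Rps19, the small subunit gene most often mutated in Diamond-Blackfan anaemia, fell with day. It read 11.75 with citalopram and 11.72 in control at day 7, against 12.22 with citalopram and 12.41 in control at day 3. Both day 7 arrays lay below both day 3 arrays. The difference was −0.58 (limma adjusted p = 0.0377), and 4 of 4 features were lower in each treatment, by −0.48 to −0.38 with citalopram and by −0.69 to −0.27 in control. The kept feature also lists a pseudogene of Rps19, and near-identical copies make single values of ribosomal protein genes uncertain. The call was lost with the mean over features (0.0564), without the floor (0.0607) and with treatment left out (0.0817), the adjusted p lying between 0.000176 and 0.0817 over the alternatives.

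Further genes did not pass the test for day. Rplp1, the partner of Rplp2 in the stalk, read 13.40 with citalopram and 13.37 in control at day 7, against 13.07 with citalopram and 12.88 in control at day 3, a difference of 0.41 (adjusted p = 0.0822), and quantile and loess scaling called it (0.0251 and 0.0284). All 8 features of Rpl9, a large subunit protein near the factor-binding site, were higher at day 7, by 0.31 to 0.45 with citalopram and by 0.16 to 0.43 in control (adjusted p = 0.137). Rps9, which helps form the messenger RNA entry, was higher by 0.31 with citalopram and by 0.28 in control (adjusted p = 0.156). Rps21, a small subunit protein, read 10.95 with citalopram and 11.04 in control at day 7, against 10.84 with citalopram and 10.81 in control at day 3. Rps3, at the messenger RNA entry and also known in DNA repair, read 12.68 with citalopram and 12.82 in control at day 7, against 12.76 with citalopram and 12.67 in control at day 3, so its day differences had opposite signs. Median subtraction added Rpl26, a tunnel protein known to bind p53 messenger RNA, on the lower side at −0.36 (adjusted p = 0.0402).

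Rpl13a, a large subunit protein that also silences inflammatory messenger RNAs, depended on which feature was read. Its brightest feature read 13.19 with citalopram and 13.21 in control at day 7, against 13.08 with citalopram and 12.79 in control at day 3. By this feature it was the 1 gene counted as 1.2-fold higher with citalopram at day 3. Of its 4 features, 3 were lower with citalopram at day 3, with a median of −0.26 over all 4. A dimmer feature that also lists Snord34, a small nucleolar RNA encoded in an intron of the gene, was higher at day 7 by 2.30 with citalopram and 1.75 in control, and one that lists Snord32a by 1.37 and 0.97. The feature of Rpl13 that lists Snord68 was higher by 1.82 with citalopram and 1.204 in control, whereas the brightest Rpl13 feature differed by 0.13 and −0.06. Not all such features rose in both treatments. The Rpl12 feature that lists Snora65 differed by 0.15 with citalopram and −0.24 in control. The Rps13 feature that lists Snord14a differed by 0.69 and 0.02. With the mean over features, limma called Rpl13a higher at day 7 (0.92, adjusted p = 0.0104).

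Sets by role were read next, without a test of the set. Of 16 measured Diamond-Blackfan genes, limma called 0 higher for day, beside 1.31% of all genes, and 1 lower, beside 1.49%. The lower one was Rps19 itself, and 0 were called for citalopram. Their median day difference was 0.11 with citalopram and 0.08 in control, and turned to −0.04 and −0.03 with array medians subtracted. At day 7, 13 of the 16 were higher with citalopram than control, beside 48 of the 75 ribosomal protein genes and 45.1% of all genes, with a median of 0.06. With quantile normalization 14 were so, with loess 15 and with array medians subtracted 8. At day 3, 10 of 16 were higher, beside 43 of the 75 and 59.4% of all genes. The 9 tunnel proteins had 0 calls. At day 7, 8 of 9 were higher with citalopram than control, beside the same 48 of 75, with a median of 0.07, and 6 to 9 were so under the other scalings. The 4 stalk genes had 0 calls. The day 7 citalopram difference was above 0 for 15 of 27 small subunit genes and for 33 of 48 large subunit genes, with medians of 0.03 in each, which turned to −0.03 and −0.02 with array medians subtracted.

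Other genes of ribosome production and TOP control were read beside them. For citalopram, limma called 0 of 59 ribosome biogenesis genes, 0 of 77 mitochondrial ribosomal proteins, 0 of 24 initiation factors, 0 of 18 other TOP messenger RNAs, 0 of 18 genes of RNA polymerase I and Myc and 0 of 21 genes of mTORC1 and its TOP arm. For day it called 1 of 59 biogenesis genes higher (Fcf1, adjusted p = 0.0387), beside 1.31% of all genes, and 2 lower, beside 1.49%. The lower ones were Dkc1, the pseudouridine synthase of small nucleolar particles (0.0164), and the helicase Ddx47 (0.0336). Of the 18 other TOP messenger RNAs it called 1 higher, beside 1.31% of all genes. This was Gas5, a host of small nucleolar RNAs (limma adjusted p = 0.00664). Gas5 read 12.84 with citalopram and 12.74 in control at day 7, against 11.33 with citalopram and 11.82 in control at day 3.

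The biogenesis list gave other values than the ribosomal proteins in some single-array comparisons. Its median was 0.12 for citalopram at day 7, where 45 of 59 genes were higher with citalopram, beside 45.1% of all genes. There 15 of 59 passed 1.2-fold on the higher side, beside 9.84%, and 0 on the lower, beside 9.06%; the median was 0.06 to 0.11 under the other scalings. In control its day median was −0.16, with 50 of 59 genes lower at day 7, where 50.3% of all genes were higher and 9910 of 19954 lower, and under the other scalings it was −0.27 to −0.15, while the ribosomal proteins had 0.10, which turned to −0.01 with array medians subtracted. Nop14, a small subunit processing factor, read 10.06 with citalopram and 9.57 in control at day 7. For citalopram at day 3 the biogenesis median was 0.00, beside 0.01 for the ribosomal proteins and 0.03 for all genes. There 29 of 59 biogenesis genes were higher, beside 59.4% of all genes. No test of the difference between the lists was run.

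**Figure D5:**
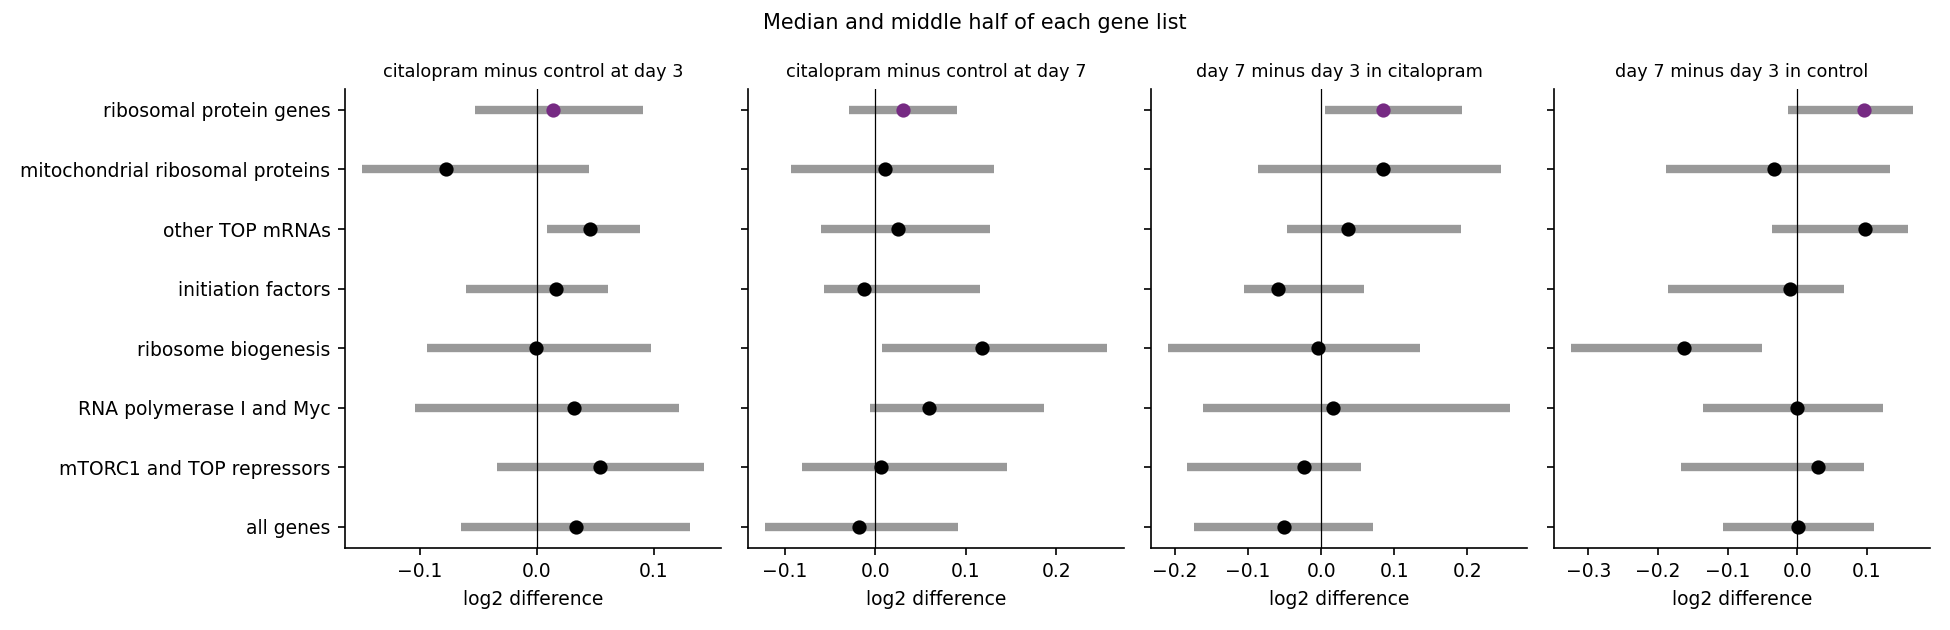
Median (point) and middle 50% (bar) of the log2 difference for each gene list, one panel per comparison, ribosomal protein genes at the top and all genes at the bottom. The ribosome biogenesis list lies at 0.12 for citalopram at day 7 and at −0.16 for day in control, where the ribosomal proteins lie at 0.03 and 0.10; subtracting array medians turns the ribosomal protein medians to −0.02 and −0.01.

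The cells were checked against markers. The matrix genes Sparc, Postn and Col1a1 lay between 11.9 and 14.1 on every array and the osteogenic factor Dlx5 between 10.1 and 10.6, whereas Alpl was at the floor and Ibsp below it. Of endothelial markers 0 of 5 were above the floor, of macrophage markers 3 of 8, of adipocyte markers 1 of 6, of myogenic markers 4 of 6 and of chondrocyte markers 3 of 6. limma called Col1a1 higher at day 7 (adjusted p = 0.0389), and likewise the cartilage collagen Col2a1 (0.0401), which read 10.37 with citalopram and 10.60 in control at day 7, against 9.89 with citalopram and 9.37 in control at day 3. Their part in the ribosomal protein differences was not tested. The 4 arrays correlated at 0.986 to 0.995.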

How the data were processed

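Total RNA was measured with 1 Affymetrix whole-transcript array per group, and the deposited values are log2 expression values per feature made by the authors, used as deposited; the log base was read from the range. Partek is named, with no version, per the submitters' processing notes, and the sources used here give neither the background correction nor the normalization. Gene symbols came from the platform annotation (21789 features with 1 symbol, 1621 with several, 12146 with none). On the kept feature 27 of the 75 genes had several symbols, among them Rpl3, Rpl11, Rpl39 and Rps27. Differences of log2 values were computed between arrays, with folds of 1.2 and 1.5 and a floor at the 40th percentile. limma 3.58.1 in R 4.3.3 fitted treatment and day with 1 residual degree of freedom, two-sided, with Benjamini-Hochberg adjustment over all genes at 0.05, and was tested on simulated data. Python 3.11.15 made the other tables. Precision is limited by 1 array per group.

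Named with values, ranges or differences were the 6 highest and 6 lowest one-symbol genes of each comparison, the 4 brightest and 4 dimmest, a list of stalk, kinase-substrate and paralog genes, and the genes limma called; Rpl30, Rpl13a, Rpl26, Rps15a, Col2a1 and features with small nucleolar RNAs were added after their values were seen. The members and lists were chosen with earlier results of these data known. Alternatives were quantile, cyclic loess and median scaling, the mean over features, features with 1 symbol, genes above the floor, the set without 5 paralogs, a trended prior, no floor and a model without the other factor. Leaving out Rpl32l, and the range over features, were added after seeing the data.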

Additional observations from a re-analysis of the deposited data

Results flagged for a closer look

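Among the genes named by rule and above the floor, 6 had citalopram differences of opposite sign at the 2 days that lay at least 1.2-fold apart, each from single arrays, and the difference between days was not tested. Rps27, which was named because it was listed beforehand, also had several symbols on its kept feature. Outside that rule, Rpl30 (0.34), Rpl13a (−0.31) and Rps15a (0.26), whose kept features carry several symbols, and Rpl39l (−0.43), below the floor, also had opposite signs at that distance. Of the 73 members above the floor, 7 changed between days by 1.2-fold on the higher side, beside 11.3% of all genes. On the lower side 2 did, beside 15.7%. Opposite signs at the 2 days were found in 9948 of 19954 genes. The day 7 difference minus the day 3 difference was 0.70 for Rpl14, 0.46 for Rpl5, 0.35 for Rps25, 0.35 for Rps27, 0.32 for Rpl23a and −0.45 for Rpl10l, on the log2 scale. The Rpl23a and Rps27 signs were those of all their features, the Rpl5 value was that of its brightest feature alone (0.07 as the median over 5 features), and Rpl14 and Rpl10l had 1 feature each. Features of the same gene share the arrays, so their agreement is not replication. Rps25 was below control in 6 of 6 features at day 3, and its 6 features were split 3 and 3 at day 7. The Rpl13a value was that of its brightest feature alone. Of its 4 features, 3 had a change above 0, with a median of 0.24 over all 4.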

How the results depend on the processing

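No paired analysis was possible because each group held 1 array, beyond the additive model, in which day sets the pairs for citalopram and treatment those for day; no replicate could be left out. The median difference of the ribosomal protein genes for citalopram at day 3 turned to −0.0058 with quantile normalization, −0.032 with cyclic loess and −0.0101 with the mean over features. With loess it moved to 0.0619 for citalopram at day 7, 0.12 for day with citalopram and 0.0856 for the day 7 minus day 3 citalopram difference; with quantile normalization the last was 0.0403 and day in control 0.0466. With array medians subtracted, the medians turned to −0.0247 (31 of 75 genes higher) for citalopram at day 7, −0.0706 (21) for day with citalopram, −0.0112 (35) for day in control and −0.0332 (25) for the difference between days. The day calls of limma were 1 with the mean over features, 1 without the floor and 0 with treatment left out. Under quantile, loess and median scaling, limma called 458, 438 and 232 genes higher by day and 1088, 590 and 2026 lower, against 163 and 185 as deposited. The cause of these shifts was not tested, except that subtracting array medians shifts each comparison by construction. With 1-symbol features, genes above the floor, no paralogs or no Rpl32l, each median and count kept its direction. Signal near the floor limits Rpl39l, Rpl3l, Rpl10l and Rps4l.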
